A study of Danio rerio with 12 samples.

Results

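Cytosolic Hsp70 chaperones and the proteins that work with them were followed in zebrafish larvae treated with broflanilide, a meta-diamide compound used against insect pests, whose target is the GABA receptor. The set holds 10 genes, matched in the tables by gene symbol; the list was drawn up with earlier results of these data known. Of 25811 genes listed for the low dose and 25448 listed for the high dose, 25004 appear in both tables, and these include 10 of 10 members. They are the Hsp70 genes hsp70.1, hsp70.2, hsp70.3, hsp70l and hspa8, the J-domain co-chaperones dnajb1a and dnajb1b, the small heat shock protein hspb1, the exchange factor bag3 and the heat shock transcription factor hsf1. Poly(A) RNA of larvae was sequenced from 12 libraries in 3 groups: a DMSO solvent control (n = 5), broflanilide at 1 µg/L, called the low dose (n = 4), and broflanilide at 10 µg/L, called the high dose (n = 3). The sources used here do not give strain, larval age, exposure time or the number of larvae per library. Nor do they say whether libraries came from separate clutches, so the p-values reflect no more than the spread among these libraries, part of which may be technical.

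Hsp70 proteins bind stretches of unfolded protein and release them in a cycle driven by ATP. J-domain proteins such as Dnajb1 deliver the client and start ATP hydrolysis, and exchange factors such as Bag3 let the spent nucleotide go. Hspa8 is the constitutive form, made in most cells at all times, while other Hsp70 genes are best known for being switched on by heat and by other stress that damages proteins, through the transcription factor Hsf1. In zebrafish embryos hsp70l is also transcribed in the developing lens without heat.

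Total counts ran from 10721597 to 16380300 per library. Among treated libraries low dose replicate 4 stood apart: 25.5% of 18786 genes lay above the highest control there and 24.4% below the lowest. In the other treated libraries 9.62% to 14.6% lay above and 8.16% to 14.3% below. Each control lies inside the control range by construction, so this share cannot show whether a control library stood apart. Each list of larval tissue markers (lens, skeletal muscle, neurons, liver, exocrine pancreas, epidermis and cycling cells) was detected, with 0 markers at 0 in every library. RNA came from larvae in bulk, so fewer cells of a type and less RNA per cell cannot be told apart.

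The genes hsp70.1, hsp70.2 and hsp70.3 form a cluster on chromosome 3 (GRCz11). They are called the tandem genes here, although they do not all share a strand. The gene hsp70.1 (ENSDARG00000029688) lies at 26112780 to 26115559 and hsp70.2 (ENSDARG00000092362) at 26119603 to 26122353, both on the minus strand. On the plus strand, hsp70.3 (ENSDARG00000021924) follows at 26123736 to 26127091, after a gap of 1382 bases. The cluster spans 14312 bases and sits inside the span of the muscle calcium pump gene atp2a1 (26081343 to 26157066, plus strand), which hsp70.3 shares in strand. The log2 fold change of atp2a1 was 0.32 (SE 0.40) for the low dose and 0.15 (SE 0.44) for the high dose. Here and for all genes, the log2 fold change (log2 FC) is from edgeR's quasi-likelihood fit. In counts scaled to library size (CPM), atp2a1 was at 838 to 5465 over the libraries and hsp70.3 at 0.313 to 17.9. The sources do not say how reads of close copies or of overlapping genes were assigned. Both the split of reads among the tandem genes and their totals are therefore uncertain.

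**Figure D1:**
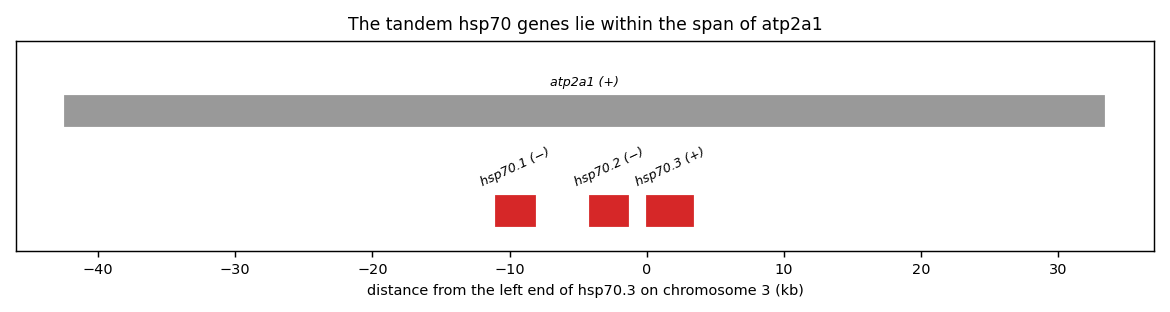
Map of the tandem hsp70 genes and of atp2a1 on chromosome 3, to scale, with distance in kb on the x axis and the strand marked. All of the cluster, 14312 bases long, lies within the span of atp2a1.

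Other members sit elsewhere, and hsp70l (ENSDARG00000055723) is on chromosome 8 from 4798158 to 4800911. The factor gene hsf1 (ENSDARG00000008818) is on chromosome 19 from 3056450 to 3082268, and bag3 (ENSDARG00000039486) on chromosome 13 from 25486608 to 25498661. The gene dnajb1a (ENSDARG00000099383) is on chromosome 3 from 49150822 to 49163683, and hspb1 (ENSDARG00000041065) on chromosome 5 from 3568016 to 3584815. The span of hspa8 (ENSDARG00000068992; chromosome 10, 29849497 to 29858018) overlaps jhy on the same strand, and that of dnajb1b (ENSDARG00000041394; chromosome 1, 55745878 to 55750208) overlaps adgre10 on the other strand.

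In control larvae the constitutive gene stood above all other members per length. The authors' FPKM, which divides reads by gene length and by a factor of the library, was 29.1 ± 8.90 (SD, n = 5) for hspa8, and every control library of hspa8 exceeded every control library of the next gene. Next came bag3 at 5.74 ± 0.90 FPKM, hspb1 at 4.14 ± 1.67 and hsf1 at 3.57 ± 0.94 (SD, n = 5). The J-domain genes followed, dnajb1a at 2.16 ± 0.91 FPKM and dnajb1b at 1.39 ± 0.48. Lowest were the other Hsp70 genes, hsp70l at 0.79 ± 0.43 FPKM, hsp70.2 at 0.77 ± 0.22, hsp70.3 at 0.42 ± 0.27 and hsp70.1 at 0.26 ± 0.28 (SD, n = 5). From bag3 downward, each gene's range over the control libraries overlapped that of its neighbour in this order. Counts scaled by TMM and divided by gene length gave the same order.

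The comparisons with control ask which of these genes differ after each dose. At the low dose hsp70.3 and hsp70.2 had the smallest p-values of the set, with their highest level in 1 library, while at the high dose hsp70l had the smallest p and the tandem genes lay inside the control range. By edgeR's quasi-likelihood test with Benjamini-Hochberg adjustment over all genes, 0 of 10 members passed an adjusted p of 0.05 at the low dose, where 0.0% of 18811 genes passed. At the high dose 0 of 9 tested members passed, as did 0.0% of 18618 genes. At an unadjusted p under 0.05, 2 of 10 members were higher at the low dose (hsp70.2 and hsp70.3), against 2.09% of all genes, and 0 were lower, against 1.8%. These 2 genes are neighbours, may share reads and were both highest in low dose replicate 4, so they do not count as independent. At the high dose 1 of 9 was higher (hsp70l), against 1.07% of all genes, and 0 were lower, against 0.929%. Members had a median log2 FC of 0.39 for the low dose (10 members) and 0.12 for the high dose (9 members, without hsp70.1). Over all genes tested the medians were 0.0013 and -0.0032. The low-dose median includes low dose replicate 4 and was not taken without it. Both dose comparisons use the same 5 control libraries. Without low dose replicate 4, 0 of 10 members had an unadjusted p under 0.05 at the low dose. DESeq2 called 0 members at either dose with adjustment. Without adjustment it gave 2 (low dose) and 1 (high dose), and limma with quality weights gave 1 (low dose) and 2 (high dose). Without adjustment edgeR with a block for replicate number gave 1 and 1, and edgeR without control replicate 2 gave 3 (low dose) and 1 (high dose).

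**Figure D2:**
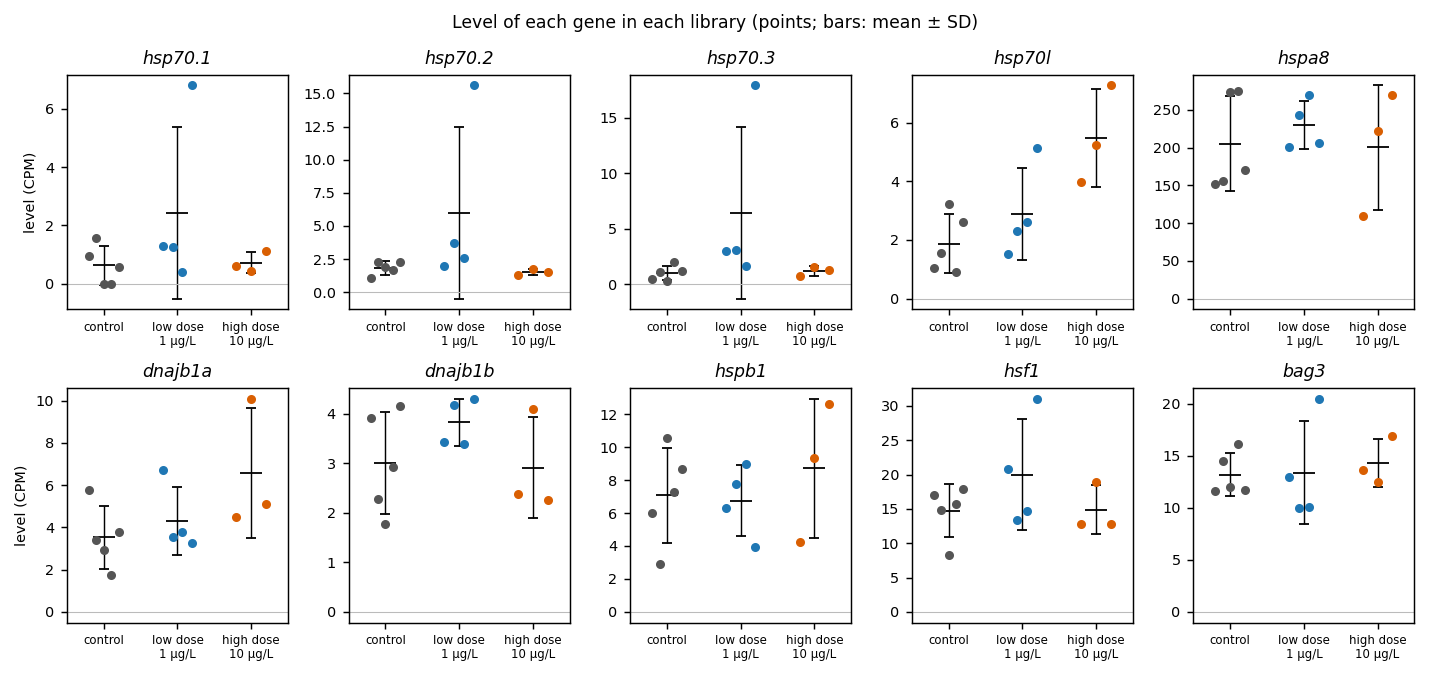
Level of each of the 10 genes in CPM (y axis, from 0, a scale of its own per panel) in each library, by group on the x axis; points are libraries and bars the mean ± SD. Low dose replicate 4 is the high low-dose point of hsp70.1, hsp70.2 and hsp70.3, and the 3 high-dose points of hsp70l lie above every control.

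The gene hsp70.3 encodes an Hsp70 of the inducible kind. Its level, in counts scaled to library size (CPM), was 0.517, 1.07, 0.313, 2.01 and 1.17 in control replicates 1 to 5 and 3.04, 3.07, 1.64 and 17.9 in low dose replicates 1 to 4. So 3 of 4 low-dose libraries lay above every control, replicate 3 lay inside the control range, and replicate 4, with 321 counts, was 5.84 times the next library of all 12. Low-dose libraries averaged 6.42 ± 7.69 CPM (SD, n = 4) and controls 1.02 ± 0.66 (SD, n = 5). The log2 FC of 2.65 (SE 0.73, 95% interval 1.08 to 4.23) ranked 12th by p among 18811 genes and did not pass (edgeR adjusted p = 0.924). Without low dose replicate 4 it was 1.34 (edgeR adjusted p = 1.00). The authors' deposited table gives 2.69 with an adjusted p of 0.561.

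Its neighbour hsp70.2 read 1.03, 2.28, 1.88, 1.64 and 2.28 CPM in control replicates 1 to 5. In low dose replicates 1 to 4 it read 2.00, 3.70, 2.61 and 15.6 CPM. Replicate 1 lay inside the control range and the other low-dose libraries above it, replicate 4 by the widest margin. The log2 FC was 1.72 (SE 0.58, edgeR adjusted p = 0.924), and 0.60 without low dose replicate 4. An exact two-sided permutation test of mean log2 CPM over libraries, in which 0.0159 is the smallest p possible at the low dose, gave p = 0.0476 for hsp70.2 and p = 0.0317 for hsp70.3, neither adjusted for testing 10 genes.

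The lowest of the set, hsp70.1, had 13, 22, 0, 0 and 9 counts in control replicates 1 to 5. The counts of 0 allow levels of up to 0.313 and 0.274 CPM in control replicates 3 and 4, by counting error alone. In low dose replicates 1 to 4 it had 16, 18, 4 and 122 counts, or 1.28, 1.26, 0.387 and 6.81 CPM. Only replicate 4 lay above every control. The log2 FC of hsp70.1 was 1.93 (SE 1.04, edgeR adjusted p = 0.924), and 0.61 without that library. Its mean count was 8.8 in controls and 9.33 at the high dose, both under the filter's minimum of 10, and 40 at the low dose. So hsp70.1 was tested in the comparisons that include the low dose only because of its low-dose counts.

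At the high dose the tandem genes lay within the control range. The level of hsp70.2 was 1.32, 1.74 and 1.54 CPM in high dose replicates 1 to 3, with a log2 FC of -0.25 (SE 0.51, 95% interval -1.36 to 0.86). For hsp70.3 it was 0.728, 1.57 and 1.29 CPM, with a log2 FC of 0.23 (SE 0.68, 95% interval -1.27 to 1.72), and 0.61 without control replicate 4. For hsp70.1 it was 0.596, 0.435 and 1.13 CPM. With a mean count under 10 hsp70.1 was not tested at the high dose, and with no count filter its log2 FC was 0.19. It passed the count filter when control replicate 3 or 4, each with 0 counts of this gene, was left out. The values were then -0.12 and -0.13. Neither hsp70.2 nor hsp70.3 passed (edgeR adjusted p = 1.00), and their intervals hold values of up to 0.86 and 1.72 above control (log2).

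The difference between the doses was tested directly on all 12 libraries. Values of log2 FC for the high against the low dose were -1.97 (SE 0.66) for hsp70.2 and -2.43 (SE 0.82) for hsp70.3, with an edgeR adjusted p of 0.953 for each. Here 2 of 10 members were lower at an unadjusted p under 0.05, against 2.05% of 18786 genes, and 0 were higher, against 2.43%. The 2 were again the neighbours hsp70.2 and hsp70.3, which do not count as independent. With adjustment by edgeR 0.0% of genes passed. For hsp70.2 and hsp70.3 all 3 high-dose libraries lay below all 4 low-dose libraries, as was so for 2.87% of genes, and the exact permutation p of 0.0571 is the smallest that 3 against 4 libraries allow. Without low dose replicate 4 the values were -0.85 and -1.11.

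Low dose replicate 4 was the highest of the 12 libraries for 6 of 10 members (hsp70.1, hsp70.2, hsp70.3, dnajb1b, hsf1 and bag3) and for 20.4% of 18786 genes. It lay above every control for 7 of 10 members, where 25.5% of genes did. By level it ranked 10th of 12 for dnajb1a, 11th for hspb1 and 7th for hspa8. Markers of several tissues stood apart in the same library. The summed level of 15 measured lens markers was 5293 CPM there, 690 to 1376 in the other low-dose libraries, 251 to 1940 in controls and 444 to 682 at the high dose. Lens markers at the low dose were above 0 (log2 FC) in 15 of 15, with a median of 1.18. By edgeR 5 of 15 were higher at an unadjusted p under 0.05, against 2.09% of all genes. These counts include replicate 4, the only low-dose library whose lens sum lay above the control range. They were not taken without it. Exocrine pancreas markers, 8 of 8 measured, summed to 2360 CPM, against 1325 to 1367 in the other low-dose libraries, 408 to 2038 in controls and 729 to 1751 at the high dose. At the low dose 7 of 7 tested were above 0 (log2 FC), and 3 were higher at an unadjusted edgeR p under 0.05, against 2.09% of all genes. These pancreas counts also include replicate 4, the only low-dose library whose pancreas sum lay above the control range, and were not taken without it. The 8 cycling cell markers summed to 82.9 CPM there, the lowest of 12, and to 139.9 to 193.9 in the other low-dose libraries. Controls were at 194.5 to 341 and high-dose libraries at 173 to 278. Every low-dose library thus lay below every control in this sum, the highest of them narrowly, so replicate 4 was not alone in it. At the low dose 8 of 8 were below 0 (log2 FC). By edgeR 3 were lower at an unadjusted p under 0.05, against 1.8% of all genes. The cycling cell counts include replicate 4 too and were not taken without it. The 8 neuron markers summed to 3994 CPM, also the lowest of 12. They were at 4581 to 5169 in the other low-dose libraries, 4664 to 6388 in controls and 4635 to 5952 at the high dose. Sums for skeletal muscle, liver and epidermis lay inside their control ranges in that library. The part of these tissue differences in the Hsp70 values was not tested.

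**Figure D3:**
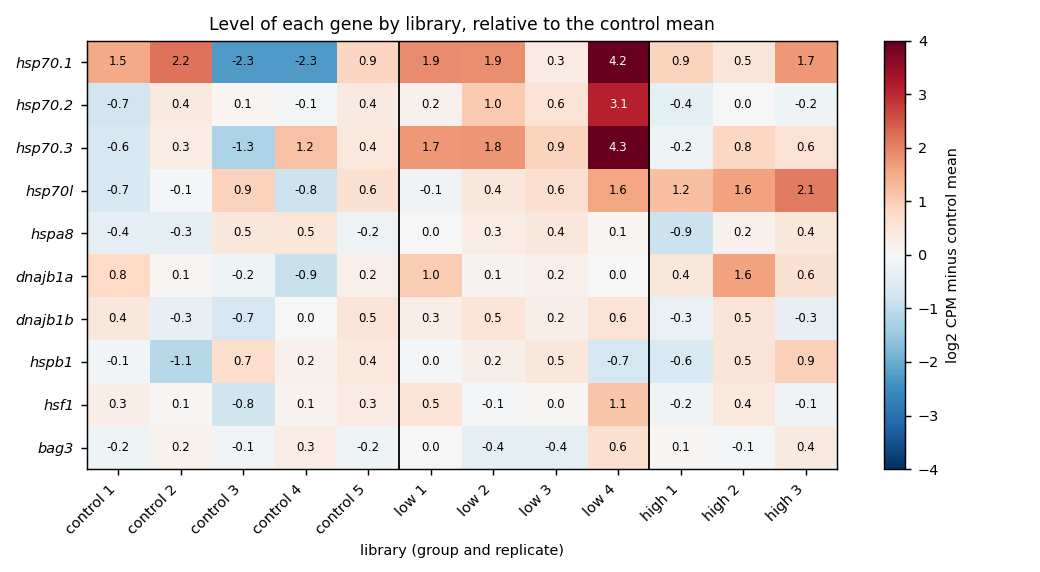
Log2 CPM of each gene (rows) in each library (columns) minus the mean of the 5 controls, printed in each cell and coloured from blue (lower) to red (higher). The column of low dose replicate 4 holds the highest values of hsp70.1, hsp70.2 and hsp70.3 (4.24, 3.10 and 4.28), and hsp70l is at 1.22 or more in all 3 high-dose libraries. For hsp70.1, control replicates 3 and 4 had 0 counts (-2.26 each) and lower the control mean. Its row therefore depends on the prior count of 1.

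The gene hsp70l followed another pattern, with its highest values at the high dose. Its level was 1.03, 1.57, 3.24, 0.912 and 2.60 CPM in control replicates 1 to 5 and 3.97, 5.22 and 7.28 CPM in high dose replicates 1 to 3, from 60, 60 and 90 counts. All 3 high-dose libraries lay above every control, as did 1.4% of 18618 genes. High-dose libraries averaged 5.49 ± 1.67 CPM (SD, n = 3) and controls 1.87 ± 1.01 (SD, n = 5). The log2 FC of 1.55 (SE 0.48, 95% interval 0.50 to 2.60) ranked 26th by p and did not pass (edgeR adjusted p = 1.00). The exact two-sided permutation p was 0.0357, the smallest that 3 against 5 libraries allow and not adjusted for testing 10 genes. With 1 library left out in turn hsp70l ran from 1.30 to 1.82 (log2 FC), and in the authors' deposited table it is 1.54 with an adjusted p of 1.00.

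At the low dose hsp70l read 1.52, 2.30, 2.61 and 5.13 CPM in replicates 1 to 4, so only replicate 4 lay above the controls. The log2 FC was 0.64 (SE 0.52, edgeR adjusted p = 0.924), and 0.20 without that library. Against the low dose, the high dose was at 0.91 (SE 0.52, edgeR adjusted p = 0.953), with 2 of 3 high-dose libraries above every low-dose library, and at 1.35 without low dose replicate 4. Of the lens markers, 14 of 15 had lower values at the high dose than in controls (median log2 FC -0.43), with 0 of 15 at an unadjusted p under 0.05, and their summed level there lay inside the control range. Liver markers were above 0 (log2 FC) in 8 of 8 at the high dose, with a median of 0.94. By edgeR 2 of 8 were higher at an unadjusted p under 0.05, against 1.07% of all genes. The summed level of the liver markers was 1064 to 4088 CPM at the high dose and 381 to 2865 CPM in controls. The part of these tissues in the hsp70l values was not tested.

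For the constitutive gene hspa8 the groups overlapped. Control replicates 1 to 5 were at 152, 156, 273, 275 and 171 CPM, low dose replicates 1 to 4 at 200.5, 243, 269 and 207, and high dose replicates 1 to 3 at 109, 221 and 270.1. High dose replicate 1 was the lowest of 12, and the other treated libraries lay inside the control range. The log2 FC was 0.16 (SE 0.22, 95% interval -0.32 to 0.65) for the low dose and -0.04 (SE 0.31, 95% interval -0.71 to 0.64) for the high dose.

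Within the family, hspa8 gave most of the summed Hsp70 level per length in every library. Gene length was 6877 bases for hspa8 and 2297 to 2358 bases for the other 4 Hsp70 genes. The FPKM shares depend on these lengths and give hspa8 less weight than read counts do. In low dose replicate 4 the other 4 genes summed to 45.5 CPM, beside 207 CPM for hspa8. The other 4 Hsp70 genes together gave 6.51%, 11.03%, 5.60%, 4.67% and 10.4% of the family's FPKM in control replicates 1 to 5. In low dose replicates 1 to 4 they gave 10.4%, 11.2%, 7.41% and 39.5%, and in high dose replicates 1 to 3 15.3%, 10.8% and 11.04%. Low dose replicate 4 alone stood far above the rest, and high dose replicate 1, with the lowest hspa8, also lay above every control. Low dose replicate 2 at 11.2% and high dose replicate 3 at 11.04% lay just above the highest control, at 11.03%. In low dose replicate 4, hsp70.3 held 43.8% of the tandem genes' FPKM, hsp70.2 39.1% and hsp70.1 17.1%. The share of hsp70.2 was just under its control minimum of 41.3%, and those of hsp70.3 and hsp70.1 lay inside their control ranges.

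**Figure D4:**
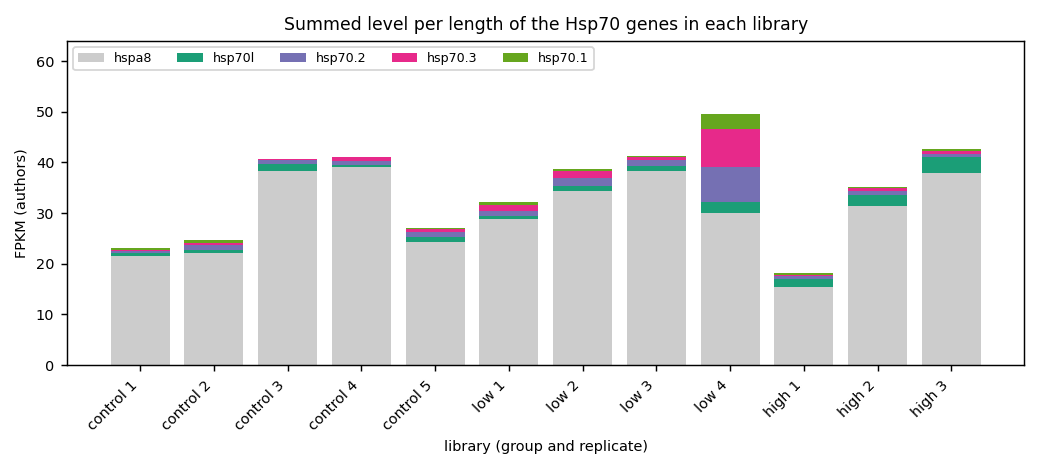
Authors' FPKM of the 5 Hsp70 genes (y axis, stacked, from 0) in each of the 12 libraries (x axis). The part of hspa8 is the tallest of every bar, and the other genes reach 19.5 FPKM in low dose replicate 4 and at most 4.71 FPKM in any other library.

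Of the J-domain co-chaperones, dnajb1a had its highest mean at the high dose. It read 5.76, 3.42, 2.92, 1.73 and 3.78 CPM in control replicates 1 to 5 and 4.50, 10.10 and 5.10 CPM in high dose replicates 1 to 3. All 3 lay above the control median, and 1 of them, replicate 2, above every control. The log2 FC was 0.89 (SE 0.43, 95% interval -0.04 to 1.82, edgeR adjusted p = 1.00), and 0.44 without high dose replicate 2. At the low dose dnajb1a read 6.71, 3.56, 3.77 and 3.24 CPM, with replicate 1 alone above the controls. This gave a log2 FC of 0.29 (SE 0.40), and -0.0053 without that library.

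Its duplicate dnajb1b read 1.77 to 4.17 CPM in control libraries, 3.38 to 4.30 in low-dose ones and 2.27 to 4.09 in high-dose ones. The low-dose libraries lay in the upper part of the control range or just above it, and the high-dose libraries inside it. Its log2 FC was 0.34 (SE 0.36) for the low dose and -0.06 (SE 0.44) for the high dose, neither past the threshold (edgeR adjusted p = 0.924 and 1.00). The high-dose value was 0.0956 without high dose replicate 3 and -0.38 without replicate 2.

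The small heat shock protein gene hspb1, whose product holds unfolded proteins without ATP, varied widely within groups. It read 2.92 to 10.5 CPM in control libraries, 3.96 to 8.99 in low-dose ones and 4.23 to 12.6 in high-dose ones, so the groups overlapped. Its log2 FC was -0.07 (SE 0.38) for the low dose and 0.30 (SE 0.43) for the high dose, and neither passed (edgeR adjusted p = 0.982 and 1.00). Without high dose replicate 3 the second was -0.06, and without low dose replicate 4, the lowest low-dose library, the first was 0.12.

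The exchange factor gene bag3, whose product also joins Hsp70 to small heat shock proteins, read 11.6 to 16.1 CPM in control libraries. It read 12.9, 9.97, 10.1 and 20.5 CPM in low dose replicates 1 to 4, with replicates 2 and 3 below every control and replicate 4 above every control. For the low dose this gave a log2 FC of 0.02 (SE 0.26), and -0.26 without replicate 4. High-dose libraries of bag3 read 12.5 to 16.9 CPM, with a log2 FC of 0.12 (SE 0.22, 95% interval -0.37 to 0.61, edgeR adjusted p = 1.00).

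The gene hsf1, which encodes the main transcription factor of the heat shock response, was highest in the same library as the tandem genes, as were 20.4% of 18786 genes. Control replicates 1 to 5 were at 17.05, 14.8, 8.25, 15.7 and 17.9 CPM, and low dose replicates 1 to 4 at 20.9, 13.4, 14.7 and 31.1 CPM. Replicates 1 and 4 lay above every control and replicates 2 and 3 inside the control range. The log2 FC was 0.44 (SE 0.29, edgeR adjusted p = 0.924), and 0.14 without replicate 4. High-dose libraries read 12.8 to 19.0 CPM, with a log2 FC of 0.0090 (SE 0.28, 95% interval -0.60 to 0.61); with median-ratio size factors it was -0.0093.

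**Figure D5:**
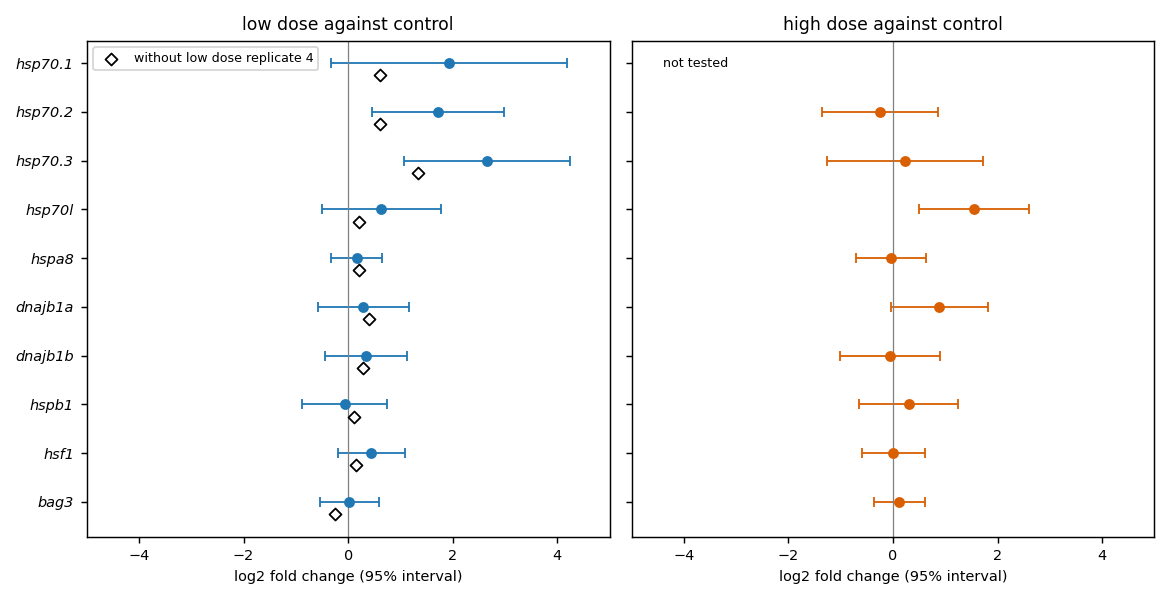
Log2 fold change of each gene (rows) at each dose against control, with its 95% interval (bars); open diamonds give the low-dose value without low dose replicate 4, and hsp70.1 was not tested at the high dose. Intervals lie above 0 for hsp70.2 and hsp70.3 at the low dose and for hsp70l at the high dose, and 0 of the 10 genes passed with adjustment by edgeR.

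Other genes of the chaperone network, 62 in 6 lists, were taken by role, and 47 of them could be tested. By edgeR with adjustment 0 of 47 passed in each of the 3 comparisons, while hsp90aa1.2 passed under other settings, given with its values. At an unadjusted p under 0.05, 2 of 47 were higher and 1 lower at the low dose, where 2.09% and 1.8% of all genes were. At the high dose 2 of 47 were higher and 1 lower, where 1.07% and 0.929% of all genes were. Their median log2 FC was 0.01 for the low dose and 0.06 for the high dose.

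The 14 other heat shock factor targets had medians of -0.06 (low dose) and 0.05 (high dose). The cytosolic Hsp90 gene hsp90aa1.2 was at 115, 118 and 146 CPM in high dose replicates 1 to 3 and between 55.6 and 65.3 CPM in controls. Every high-dose library of this gene lay above every control, as was so for 1.4% of 18618 genes. Its log2 FC was 1.09 (SE 0.15) and did not pass by edgeR (adjusted p = 0.234), but hsp90aa1.2 was among the 4 genes that DESeq2 called and the 2 that limma with quality weights called at this dose. Its copy hsp90aa1.1 was at 62.0 CPM in low dose replicate 4 and 6.69 to 29.5 CPM in controls, with a log2 FC of 0.96 (SE 0.42, edgeR adjusted p = 0.924) for the low dose. Whether reads of these close copies were split between them was not tested, so both values are uncertain. The Hsp90 co-chaperone fkbp4 was at 0.45 (SE 0.20, log2 FC) at the high dose.

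Among the 10 exchange factors and Hsp70 cofactors, a log2 FC above 0 was found for 8 (low dose) and for 9 (high dose), with medians of 0.13 and 0.13 and 0 past the adjusted threshold by edgeR. The one with the smallest p was bag6, at 0.38 (SE 0.17) at the low dose. The 8 J-domain genes tested beside the members had medians of -0.05 and 0.15, and the 5 small heat shock genes 0.18 and -0.14. Of the 7 other Hsp70 and Hsp110 genes, with medians of -0.18 and 0.09, hspa14 was at -2.45 (SE 1.11) at the high dose. Its levels were 0.162 to 0.463 CPM there, inside the control range of 0.130 to 4.27 CPM. Control replicates 1 and 2 were high, at 2.95 and 4.27 CPM, and the low-dose log2 FC was -2.14 (SE 0.99). The gene hsbp1a, which encodes a protein that binds heat shock factor, was at -0.54 (SE 0.23) at the low dose, and was lowest in low dose replicate 4 at 37.3 CPM. Against the low dose, the high dose was higher at an unadjusted p under 0.05 for hspa4l (0.42), hsp90aa1.2 (0.85) and fkbp4 (0.59) and lower for ubb (-0.76), and 0 of these passed with adjustment by edgeR. In that comparison hsp90aa1.2 was called by limma with quality weights, and by edgeR with low dose replicate 4 and control replicates 2 and 3 left out.

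Likeness of pattern was measured as the root mean square difference of centred log2 CPM over the 12 libraries, among 13834 genes whose mean count reached 50, a level that 5 members reached. Nearest to hspa8 were smdt1a (0.15), hikeshi (0.17) and riox2 (0.17), against a spread of hspa8 about its own mean of 0.41. The gene hsf1 lay nearest to kdm3b (0.14), CABZ01084603.1 (0.14) and ubald2 (0.15), with a spread of its own of 0.44. For hspb1 the nearest were bhmt (0.17), tnni2b.1 (0.22) and gpx4a (0.22), with a spread of 0.59. For bag3, with a spread of 0.29, they were fndc5b (0.16), chrm4a (0.16) and zranb1a (0.17). For dnajb1a, with a spread of 0.61, they were zgc:110329 (0.35), si:ch1073-416d2.3 (0.37) and ints9 (0.38). Among these 5 members the nearest pair, hsf1 and bag3, differed by 0.41.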

How the data were processed

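Poly(A) RNA of 12 larval libraries was sequenced with a directional kit, per the labels' protocols. Tools named in the submitters' processing notes are HISAT2, featureCounts, fastp and DESeq2, with the build GRCz11 and no versions. Per the file headers, the authors deposited raw read counts and FPKM per gene, their log2 fold change, and their p-value and adjusted p-value, 1 table per dose. The deposited FPKM equals the count divided by gene length and by 1 factor per library. Another 17 per-sample columns were not used. The members and gene lists were chosen with earlier results of these data known.

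Counts of genes with a mean of at least 10 were tested with edgeR 4.0.16 (R 4.3.3), quasi-likelihood, TMM scaling, prior count 0.125 and Benjamini-Hochberg adjustment over all genes at 0.05. Each dose was fitted with its controls, and the difference between doses on all 12 libraries. SE was taken as the fold change (log2) divided by the root of F. CPM values share 1 TMM scale. Log2 CPM had a prior count of 1. The test was run on simulated counts first. A count of 0 allows 3 counts. The 10 members were named, and up to 3 genes with the smallest p of each other list. Alternatives were median-ratio size factors, DESeq2 1.42.0, limma 3.58.1 with quality weights, other filters and prior counts, other libraries in the fit, a replicate block, and libraries left out. Sequences were not used here.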

Additional observations from a re-analysis of the deposited data

Results flagged for a closer look

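Within groups of 4 or 5 libraries, the gap from the highest or lowest library to its neighbour was divided by the group's range. Of 20 groups (10 members in 2 groups), 4 passed the 95% critical value of Dixon, which about 1 in 20 independent groups would pass by chance. The groups are not independent, since the tandem genes were flagged in the same library and may share reads. Over all 18786 genes the share passing was 6.09% in controls and 6.57% at the low dose. Low dose replicate 4 was far above the other low-dose libraries for hsp70.1 (0.861 of the range), hsp70.2 (0.875) and hsp70.3 (0.912). The same library was far above the others for 2.89% of 18786 genes. Low dose replicate 1 was far above the others for dnajb1a (0.847).

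For hsp70.2 all 4 low-dose libraries lay above the control median of 1.88 CPM and all 3 high-dose libraries below it. The share of all genes with this pattern was not counted. All 3 high-dose libraries lay below all 4 low-dose ones for 2.87% of 18786 genes. The high-dose values of hsp70.2, 1.32 to 1.74 CPM from 19 to 20 counts, lay inside the control range. The test of the difference between the doses gave a log2 fold change of -1.97 and did not pass (edgeR adjusted p = 0.953).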

How the results depend on the processing

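Of 559 fold changes of members under an alternative, 519 kept their direction, 40 changed sign and 0 passed the adjusted threshold. Members called stayed at 0 under each alternative run. Genes called, 0 in each comparison by edgeR, were 1 (low dose) and 4 (high dose) with DESeq2, 2 (high dose) and 2 (high against low) with limma quality weights, 1 (high dose) without control replicates 2 and 3, and 3 (high against low) without those and low dose replicate 4. The cause was not tested.

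Signs changed for genes near 0 (log2 FC). With limma, bag3 was -0.15 and hspb1 0.0966 (low dose), and hspa8 0.0030 and hsf1 -0.0623 (high dose). The gene hsf1 was also -0.0093 with median-ratio size factors and -0.0102 with DESeq2 (high dose). With control replicates 2 and 3 and low dose replicate 4 left out, hsf1 was -0.0493, bag3 -0.25 and hspb1 0.0694 (low dose). These libraries were left out together as ones standing apart. Control replicates 2 and 3 are among the libraries that set the control ranges given here. Without control replicates 2 and 3, hsp70.3 was -0.0367, hspa8 0.0091 and hsf1 -0.18 (high dose).

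With 1 library left out in turn, values at the low dose ran from -0.0053 to 0.54 for dnajb1a, -0.26 to 0.14 for bag3 and -0.27 to 0.12 for hspb1. High-dose values ran from -0.0640 to 0.64 for hspb1, -0.0142 to 0.21 for bag3, -0.0138 to 0.61 for hsp70.3, -0.31 to 0.26 for hspa8, -0.38 to 0.0956 for dnajb1b and -0.20 to 0.11 for hsf1. High against low, they ran from -0.48 to 0.0967 for hspa8 and -0.0374 to 0.38 for bag3.

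Whether replicate numbers pair the samples could not be decided. Deviations of same-numbered libraries correlated at -0.26 to 0.26, and 8 of 20 matches were best with their own number. With so few libraries per group some such matches arise by chance, so these values neither establish nor exclude pairing. With the replicate block members called stayed at 0, bag3 was -0.0714 and hspb1 0.0767 (low dose), hspa8 0.0065 and dnajb1b 0.16 (high dose), and hsp70l 1.60 (high dose). The block moved hsp70.3 from 0.23 to 0.96 at the high dose, and for high against low it moved hsp70.3 from -2.43 to -1.24 and hsp70.2 from -1.97 to -1.13. Counts under 50 in most libraries limit hsp70.1, hsp70.2, hsp70.3, hsp70l and dnajb1b.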
